A study of Mus musculus with 4 samples.

Results

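The genes described here encode 10 transcription factors of the naive and resting T cell state: Tcf7, Lef1, Klf2, Foxp1, Foxo1, Satb1, Bach2, Sox4, Id3 and Zbtb20. They were taken by gene symbol from a table of 15466 genes, and all 10 were found. Their mRNA was measured by stranded poly(A) RNA sequencing in CD8 T cells from mouse spleen, in 4 libraries of 1 group each. IL-15C VM and IL-15C naive cells came from C57BL/6 mice given IL-15C, a complex of IL-15 with IL-15Ra, 4 times a week. WT VM and WT naive cells came from wild-type C57BL/6 mice given PBS on the same schedule. The labels give no age, dose or length of treatment. Virtual memory (VM) cells were sorted as CD44hi CD49d- and naive cells as CD44- CD49d-, after enrichment with beads against CD8. The title of each sample gives 3 mice, without saying whether these were pooled.

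Naive CD8 T cells are held in a resting state by a set of DNA-binding proteins. FOXO1 is a forkhead factor that PI3K and AKT signalling keeps out of the nucleus, and KLF2, whose gene it activates, maintains receptors for lymph node entry and exit. TCF1, the product of Tcf7, and LEF1 are HMG-box proteins that preserve T cell identity and the capacity for self-renewal. Virtual memory cells carry memory markers without known exposure to foreign antigen, and IL-15, which signals through STAT5, sustains them and drives their division.

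Each group had 1 library, so no difference had a replicate check and no p-value was computed. The libraries held 43862816 to 48950547 reads assigned to genes, and 1 read corresponded to 0.0197 to 0.0233 CPM, the read count relative to library size after TMM scaling. Parentheses after a ratio give its exact 95% interval from the read counts. It covers counting error alone, with no spread between mice or libraries. Because PCR copies were not marked, several reads can stem from 1 molecule, and the interval can be too narrow even for counting error. In bulk libraries fewer cells expressing a gene and less RNA per cell cannot be told apart. A gene is called higher or lower here when it differed at least 2-fold with its whole interval beyond 2-fold. The CD8 chain genes Cd8a and Cd8b1 stood at 981 to 1603 CPM in the 4 libraries, and the sorted marker gene Cd44 at 243 CPM in IL-15C VM, 17.2 CPM in IL-15C naive, 232 CPM in WT VM and 8.65 CPM in WT naive cells. Itga4, which encodes CD49d, was present in all 4 libraries at 50.9 to 614 CPM, although the cells were sorted as lacking the surface protein.

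Most of these genes had their highest level in WT naive cells and their lowest in IL-15C VM cells. That was the order for Lef1, Foxp1, Foxo1, Satb1, Bach2, Sox4 and Zbtb20. Tcf7 and Klf2 also had their lowest level in IL-15C VM cells but were highest in IL-15C naive cells, and Id3 was highest in WT VM and lowest in WT naive cells. The span between the highest and the lowest library ran from 1.05-fold for Tcf7 to 28.4-fold for Sox4. On the TPM scale, which also divides by transcript length, Tcf7 was the most abundant with a mean of 971 TPM over the libraries, before Klf2 at 309 TPM and Lef1 at 260.3 TPM, and Zbtb20 and Sox4 were the least abundant at 2.42 and 2.28 TPM.

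**Figure D1:**
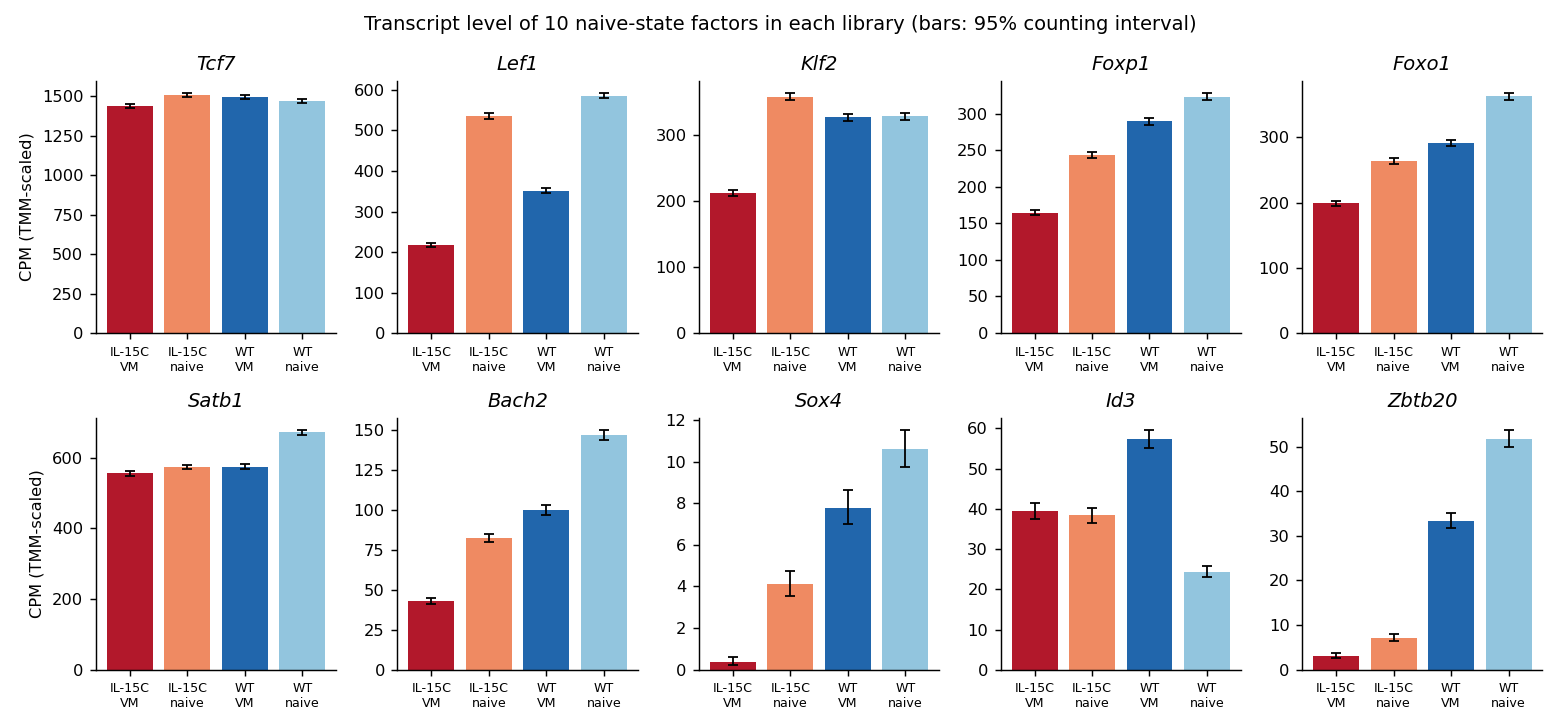
Level of each of the 10 genes (vertical axis, TMM-scaled CPM, starting at 0) in the 4 libraries, with bars for 1 library each and error bars for the 95% counting interval. Tcf7 stands between 1439 and 1510.0 CPM in all 4 libraries, whereas Sox4 stands at 0.373 CPM and Zbtb20 at 3.13 CPM in IL-15C VM cells, their lowest library.

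Among the HMG-box factors, Tcf7 (Entrez 21414, chromosome 11, 52246527 to 52283383, minus strand, on GRCm38, the assembly also named mm10, as RefSeq places it) stood at 1439 CPM in IL-15C VM, 1510.0 CPM in IL-15C naive, 1496 CPM in WT VM and 1472 CPM in WT naive cells. The 4 libraries were nearly level, and the order of IL-15C naive and WT VM cells was within counting error. Lef1 (Entrez 16842, chromosome 3, 131110297 to 131224357, plus strand) stood at 218 CPM in IL-15C VM, 536 CPM in IL-15C naive, 351 CPM in WT VM and 586 CPM in WT naive cells. VM cells had the lower Lef1 level under either treatment, and each step in the order was larger than counting error. Sox4 (Entrez 20677, chromosome 13, 28948919 to 28953699, minus strand), a factor of the SOX family best known from progenitor and early T lineage cells, had 16 reads in IL-15C VM, 187 in IL-15C naive, 349 in WT VM and 539 in WT naive cells. These counts correspond to 0.373, 4.11, 7.79 and 10.6 CPM. The IL-15C VM library was far below the others, and the gene is low in all 4. Exons of the long noncoding gene Gm26735 on the opposite strand overlap 54.6% of the Sox4 exon bases in GENCODE M21. The sources used here do not say whether reads were counted by strand, so reads of the pair cannot be told apart. The other 9 genes shared at most 13.7% of their exon bases with another gene, the most being Lef1 with the antisense gene Gm43352.

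Among the KLF and forkhead factors, Klf2 (Entrez 16598, chromosome 8, 72319062 to 72321654, plus strand) stood at 211 CPM in IL-15C VM, 357 CPM in IL-15C naive, 326 CPM in WT VM and 328 CPM in WT naive cells. IL-15C VM cells stood apart from the other 3, and the WT libraries did not differ beyond counting error. Foxo1 (Entrez 56458, chromosome 3, 52268337 to 52350109, plus strand) stood at 199 CPM in IL-15C VM, 263 CPM in IL-15C naive, 291 CPM in WT VM and 362 CPM in WT naive cells. Foxp1 (Entrez 108655, chromosome 6, 98925342 to 99522746, minus strand), which encodes a forkhead repressor that keeps naive T cells quiescent in part by antagonising FOXO1, stood at 165 CPM in IL-15C VM, 243 CPM in IL-15C naive, 289.7 CPM in WT VM and 323 CPM in WT naive cells. Foxo1 and Foxp1 had the same order of libraries, with the IL-15C libraries below the WT ones, and every step in it exceeded counting error.

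Among the chromatin organisers and repressors, Satb1 (Entrez 20230, chromosome 17, 51736187 to 51833290, minus strand), which encodes a genome organiser of the T lineage, stood at 557 CPM in IL-15C VM, 574 CPM in IL-15C naive, 575 CPM in WT VM and 672 CPM in WT naive cells. WT naive cells were the highest, and IL-15C naive and WT VM cells did not differ beyond counting error. Bach2 (Entrez 12014, chromosome 4, 32238413 to 32586109, plus strand), whose product restrains effector genes by competing with AP-1 factors for DNA, stood at 42.9 CPM in IL-15C VM, 82.3 CPM in IL-15C naive, 99.99 CPM in WT VM and 147 CPM in WT naive cells. Zbtb20 (Entrez 56490, chromosome 16, 42875689 to 43634392, plus strand), a BTB zinc finger repressor that limits memory CD8 T cell metabolism and recall in mice, stood at 3.13 CPM in IL-15C VM, 7.17 CPM in IL-15C naive, 33.4 CPM in WT VM and 51.7 CPM in WT naive cells. Bach2 and Zbtb20 kept the order seen for Foxo1, with the IL-15C libraries of Zbtb20 far below the WT ones. Id3 (Entrez 15903, chromosome 4, 136143822 to 136145392, plus strand), an inhibitor that binds E proteins and marks memory precursor and long-lived CD8 cells, stood at 39.5 CPM in IL-15C VM, 38.4 CPM in IL-15C naive, 57.4 CPM in WT VM and 24.4 CPM in WT naive cells. Its IL-15C libraries did not differ beyond counting error and lay between the WT libraries.

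Promoter windows are shown for the 5 genes that spanned more than 2-fold over the libraries and, as a contrast, for Tcf7, which was nearly level. The sequences are from RefSeq on GRCm38.p6, run from 250 bases before to 50 bases after an annotated start on the gene's own strand, and are written 5′ to 3′. All 10 genes had a window, 20 in all. Capitals mark letters of 7 motifs searched on both strands: TTCNNNGAA for STAT5, GTAAACA for FOXO, CTTTGA for TCF and LEF, TGANTCA for AP-1 and BACH, CANNTG for E proteins, GGGCGGG for KLF and SP, and TTTCCCGC for E2F. The windows are Tcf7 at chr11:52282546-52282845 (minus strand, the second of its 2), Lef1 at chr3:131110047-131110346 (plus, the first of 4), Bach2 at chr4:32417185-32417484 (plus, at a start inside the gene), Sox4 at chr13:28953650-28953949 (minus), Id3 at chr4:136143572-136143871 (plus) and Zbtb20 at chr16:43247034-43247333 (plus, also inside the gene).
Tcf7: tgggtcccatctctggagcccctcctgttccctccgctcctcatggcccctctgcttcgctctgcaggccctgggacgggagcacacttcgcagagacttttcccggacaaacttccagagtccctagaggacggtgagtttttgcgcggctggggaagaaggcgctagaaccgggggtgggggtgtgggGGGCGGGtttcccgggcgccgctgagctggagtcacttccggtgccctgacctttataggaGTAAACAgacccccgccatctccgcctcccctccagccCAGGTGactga
Lef1: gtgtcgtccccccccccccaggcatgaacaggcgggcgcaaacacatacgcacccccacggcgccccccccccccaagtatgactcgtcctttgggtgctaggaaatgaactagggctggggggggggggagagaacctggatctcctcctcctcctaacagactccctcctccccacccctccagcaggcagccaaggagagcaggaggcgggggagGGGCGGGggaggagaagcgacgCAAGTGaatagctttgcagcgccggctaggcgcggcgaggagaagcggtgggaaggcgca
Bach2: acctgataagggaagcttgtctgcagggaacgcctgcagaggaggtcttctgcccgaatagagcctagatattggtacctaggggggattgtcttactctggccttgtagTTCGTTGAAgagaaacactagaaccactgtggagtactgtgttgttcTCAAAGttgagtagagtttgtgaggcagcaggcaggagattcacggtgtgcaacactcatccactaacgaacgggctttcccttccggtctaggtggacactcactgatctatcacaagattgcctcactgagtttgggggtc
Sox4: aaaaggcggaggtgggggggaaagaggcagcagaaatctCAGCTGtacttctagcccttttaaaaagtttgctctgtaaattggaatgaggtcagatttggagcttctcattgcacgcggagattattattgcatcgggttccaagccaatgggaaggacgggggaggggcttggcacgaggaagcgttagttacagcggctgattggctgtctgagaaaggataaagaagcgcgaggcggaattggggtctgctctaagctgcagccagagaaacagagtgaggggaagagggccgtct
Id3: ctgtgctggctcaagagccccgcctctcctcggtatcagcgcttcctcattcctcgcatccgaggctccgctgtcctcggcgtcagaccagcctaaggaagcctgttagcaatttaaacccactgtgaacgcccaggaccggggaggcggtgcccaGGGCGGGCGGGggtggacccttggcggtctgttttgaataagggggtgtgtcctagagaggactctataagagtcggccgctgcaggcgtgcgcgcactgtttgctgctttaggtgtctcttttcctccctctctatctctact
Zbtb20: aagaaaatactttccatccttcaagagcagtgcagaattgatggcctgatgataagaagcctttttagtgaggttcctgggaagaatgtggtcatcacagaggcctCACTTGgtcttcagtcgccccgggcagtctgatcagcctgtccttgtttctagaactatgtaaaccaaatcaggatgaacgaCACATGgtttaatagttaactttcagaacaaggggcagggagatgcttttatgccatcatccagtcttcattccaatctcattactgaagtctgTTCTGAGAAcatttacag
Positions count from 1 at the start, with -1 just before it, and name the leftmost letter. STAT5 letters stand in the Bach2 window at position -140 from the start and in the Zbtb20 window at position 33, and in 8.3% of all 32851 RefSeq windows. TCF and LEF letters stand in the Bach2 window at position -93 (16% of all windows) and FOXO letters in the Tcf7 window at position 2 (3.65%). The other Tcf7 window, not shown, holds no FOXO letters. TCF and LEF letters also stand in windows not shown, of Lef1 at positions -180 and -120 and of Foxp1 at -204. KLF and SP letters are in the Tcf7, Lef1 and Id3 windows (25.6% of all), where the matches of Id3 at positions -94 and -90 overlap. E-box letters, which 72.3% of all windows hold, are in those of Tcf7, Lef1, Sox4 and Zbtb20. AP-1 letters (7.81%) and E2F letters (1.07%) are in none of the 20 windows. A match describes these letters only.

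The comparison of VM with naive cells asked how the subsets differ. Under IL-15C, Lef1 was called lower in VM cells at a log2 ratio of -1.30 (-1.33 to -1.27), and Sox4 was called lower at -3.31 (-4.30 to -2.72). These were 2 of the 10 genes, where 5.91% of the 12206 genes compared were called lower, and none of the 10 was called higher (6.52% of all). Ratios were below 0 for 9 of the 10, as for 50.4% of all genes compared. Zbtb20 had a ratio of -1.19 (-1.50 to -0.90) and Bach2 of -0.94 (-1.02 to -0.86), so that their intervals reached inside 2-fold. Klf2 stood at -0.76, Foxp1 at -0.56 and Foxo1 at -0.41, while Tcf7 (-0.07), Satb1 (-0.04) and Id3 (0.04) were nearly equal in the subsets. The median of the 10 genes was -0.66, beside -0.01 over all genes compared. Sox4 was below the level set by a filter at 5 CPM in either library, and Lef1 was the one gene still counted with that filter.

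In WT mice none of the 10 genes was called lower in VM cells (1.11% of the 12259 genes compared were), and 1 was called higher (4.81% of all): Id3, with a log2 ratio of 1.23 (1.14 to 1.33). Lef1 was the farthest below at -0.74 (-0.77 to -0.71), which ranked 427 from the lowest of all genes compared. After it came Zbtb20 at -0.63, Bach2 at -0.55 and Sox4 at -0.44 (-0.64 to -0.25). Foxo1 (-0.32), Satb1 (-0.23) and Foxp1 (-0.16) differed by less, and Klf2 (-0.01) and Tcf7 (0.02, but -0.00 with total counts or DESeq2 size factors) were level. Ratios were below 0 for 8 of the 10, as for 48.6% of all genes compared. The median of the 10 was -0.27, beside 0.01 over all genes compared.

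**Figure D2:**
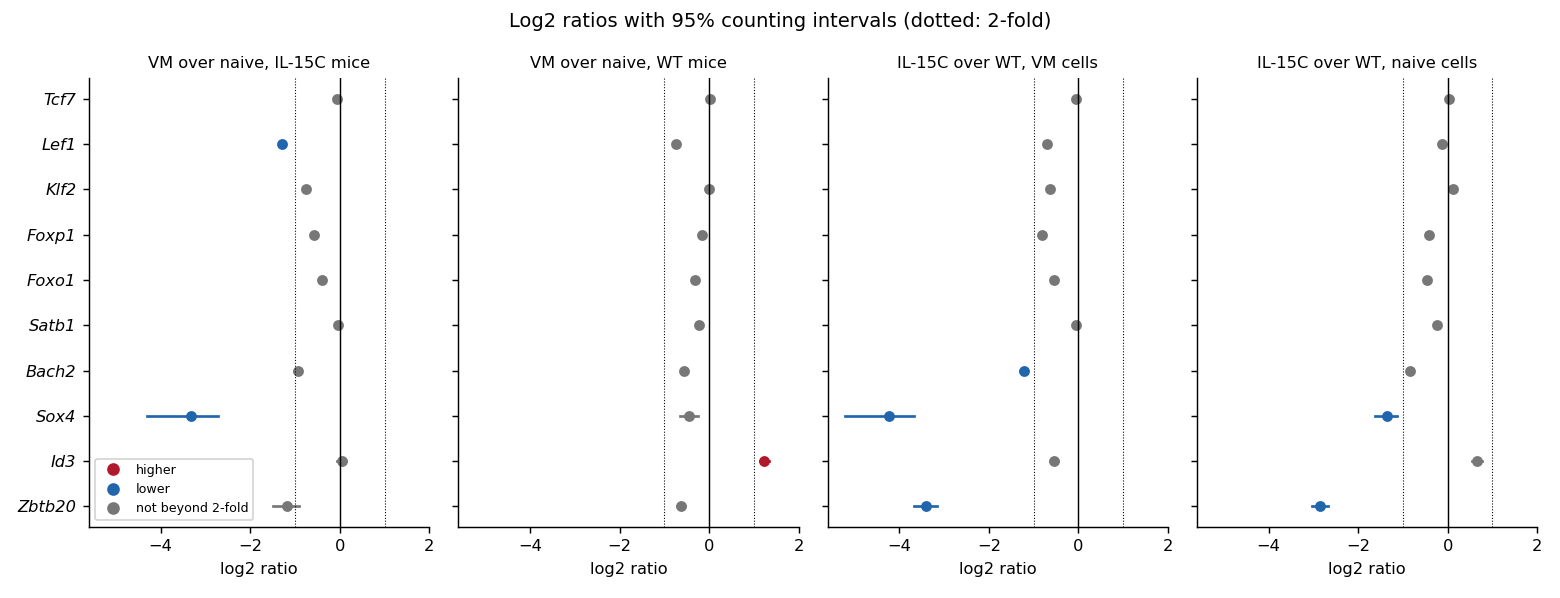
Log2 ratio (horizontal axis) of each of the 10 genes in the 4 comparisons, with points for the estimate, lines for the 95% counting interval and dotted lines at 2-fold. Red points are called higher, blue points lower, and grey points are not wholly beyond 2-fold; Sox4 is blue in 3 panels and Zbtb20 in 2.

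RNA from other blood cells differed between the subset libraries too. Summed over the 5 dendritic cell markers in the table, the level was 32.5 CPM in IL-15C VM, 7.90 CPM in IL-15C naive, 181 CPM in WT VM and 5.03 CPM in WT naive cells. The 4 markers of CD4 and regulatory T cells in the table summed to 17.4, 11.4, 74.7 and 16.6 CPM in the same order. WT VM cells were highest for both sums, as they were for Id3, and a link to Id3 was not tested. Ikzf2 alone gave 54.0 of the 74.7 CPM in WT VM cells. The 4 B cell markers in the table summed to 98.7, 17.8, 87.0 and 16.2 CPM in the same order, higher in both VM libraries than in the naive ones. So were the 6 NK and gamma-delta T cell markers, at 43.2, 12.2, 29.3 and 6.86 CPM, and the 4 myeloid markers, at 18.1, 3.39, 12.7 and 5.19 CPM. The 5 erythroid and platelet markers summed to 2.17, 2.22, 8.21 and 2.73 CPM, highest in WT VM cells. Of the first 3 lists Ms4a1, Pax5, Xcr1, Siglech and Cd4 were not analysed here, and Foxp3 and Zbtb7b are also among the family relatives given further on. Several of the 10 factors are also expressed in B and CD4 cells, and the part of such RNA in the ratios was not tested.

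IL-15C was compared with WT in each subset to ask how the treatment bore on each. In VM cells Sox4 was called lower with IL-15C at a log2 ratio of -4.22 (-5.21 to -3.66), which ranked 5 from the lowest of 12370 genes compared. Zbtb20 was called lower at -3.40 (-3.68 to -3.16), which ranked 28 from the lowest, and Bach2 at -1.22 (-1.30 to -1.14). These were 3 of the 10, where 8.83% of all genes compared were called lower, and none was called higher (8.6% of all). Foxp1 stood at -0.82 (-0.86 to -0.77), Lef1 at -0.69 (-0.73 to -0.65), Klf2 at -0.63, Foxo1 at -0.55 and Id3 at -0.54. Tcf7 (-0.06) and Satb1 (-0.05) differed least. All 10 ratios were below 0 under each scaling of the libraries tried, where 52.2% of all genes compared were, though Tcf7 (0.02) and Satb1 (0.31) were above 0 once a trend with transcript length was removed. The median of the 10 was -0.66, beside -0.04 over all genes compared.

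In naive cells Zbtb20 was called lower with IL-15C at a log2 ratio of -2.84 (-3.02 to -2.68), which ranked 10 from the lowest of 12174 genes compared, and Sox4 at -1.36 (-1.61 to -1.12). These were 2 of the 10, where 1.99% of all genes compared were called lower, and none was called higher (4.95% of all). Ratios were below 0 for 7 of the 10, as for 48.7% of all. Bach2 stood at -0.83 (-0.89 to -0.78), Foxo1 at -0.46, Foxp1 at -0.41, Satb1 at -0.23 and Lef1 at -0.13. Id3 was higher at 0.65 (0.55 to 0.76), short of 2-fold, and Klf2 stood at 0.12 (-0.11 from the deposited TPM values). Tcf7 stood at 0.04, but at -0.02 with total counts and -0.18 from the deposited TPM values. The median of the 10 was -0.32, beside 0.02 over all genes compared. Sox4 and Zbtb20 were thus the 2 of the 10 genes called lower with IL-15C in both subsets. The share of all genes called lower in both was not counted. These comparisons share no library, but both carry the trend with transcript length given below.

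Genes of dividing cells differed between the same libraries. The 10 proliferation genes, Mki67 and Top2a among them, summed to 5919 CPM in IL-15C VM, 2312 CPM in IL-15C naive, 601 CPM in WT VM and 229 CPM in WT naive cells, so that the order of the libraries was the reverse of that for Foxp1, Foxo1, Bach2, Sox4 and Zbtb20. The part of cell division in the ratios was not tested.

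**Figure D3:**
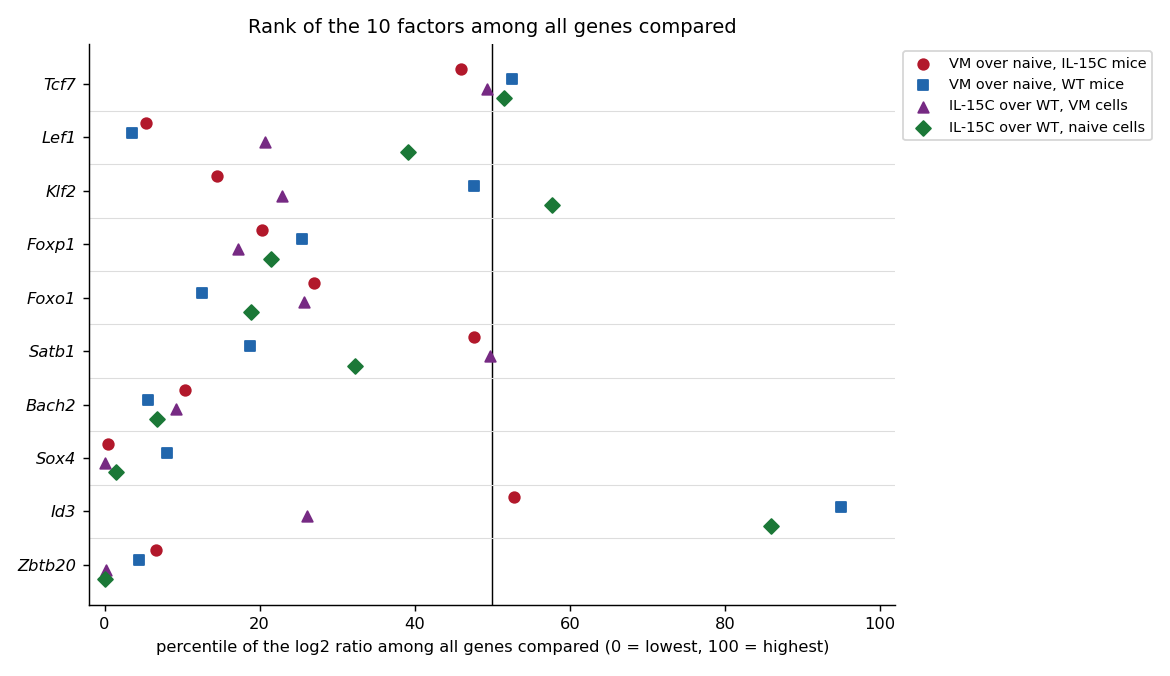
Percentile of each gene's log2 ratio among all genes compared (horizontal axis, 0 for the lowest ratio), with 1 symbol for each of the 4 comparisons. Sox4 and Zbtb20 lie near 0 for IL-15C over WT in either subset, Tcf7 lies near the middle throughout, and Id3 ranges from 26.1 to 94.99.

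Transcript length moved with the IL-15C response over the whole table. The length that the authors' counts and FPKM values imply runs from 1125 bases for Id3 to 23599 bases for Zbtb20, with 11899 bases for Bach2, 8569.6 for Foxp1, 6554 for Foxo1, 6516 for Satb1 and 5722 for Sox4. In VM cells the median log2 ratio of IL-15C over WT was 0.36 in the shortest of 5 equal groups of genes and -0.46 in the longest, and in naive cells it was 0.40 and -0.42. Between VM and naive cells the medians of these groups were 0.05 and -0.06 under IL-15C, and 0.06 and -0.07 in WT mice. Genes of the length of Bach2 had a fitted log2 ratio of -0.70 in VM and -0.72 in naive cells.

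With this trend removed, Bach2 stood at -0.52 in VM and -0.12 in naive cells and was no longer called lower in VM cells. Foxp1 stood at -0.33 in VM and 0.07 in naive cells. Foxo1 stood at -0.19 in VM and -0.14 in naive cells, and Satb1 at 0.31 in VM and 0.09 in naive cells. Zbtb20 remained called lower, at -2.23 (-2.51 to -1.99) in VM and -1.62 (-1.80 to -1.47) in naive cells, although the trend at its length rests on few genes. Of genes of at least 20000 bases, 35 were compared in VM cells, with a median of -1.37 and 16 called lower, and 38 in naive cells, with a median of -1.23 and 18 called lower. Sox4 stayed called lower in VM cells at -3.92 (-4.90 to -3.36), and in naive cells its ratio of -1.10 (-1.36 to -0.87) reached inside 2-fold. Id3 stood at -0.94 in VM and 0.22 in naive cells, and Klf2 at -0.75 in VM and -0.07 in naive cells. Lef1, of 3520.2 bases, had -0.59 in VM and -0.11 in naive cells. The cause of the trend was not tested. Within a gene, the implied length differed between libraries by 1.03-fold to 1.16-fold, the most in Zbtb20.

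**Figure D4:**
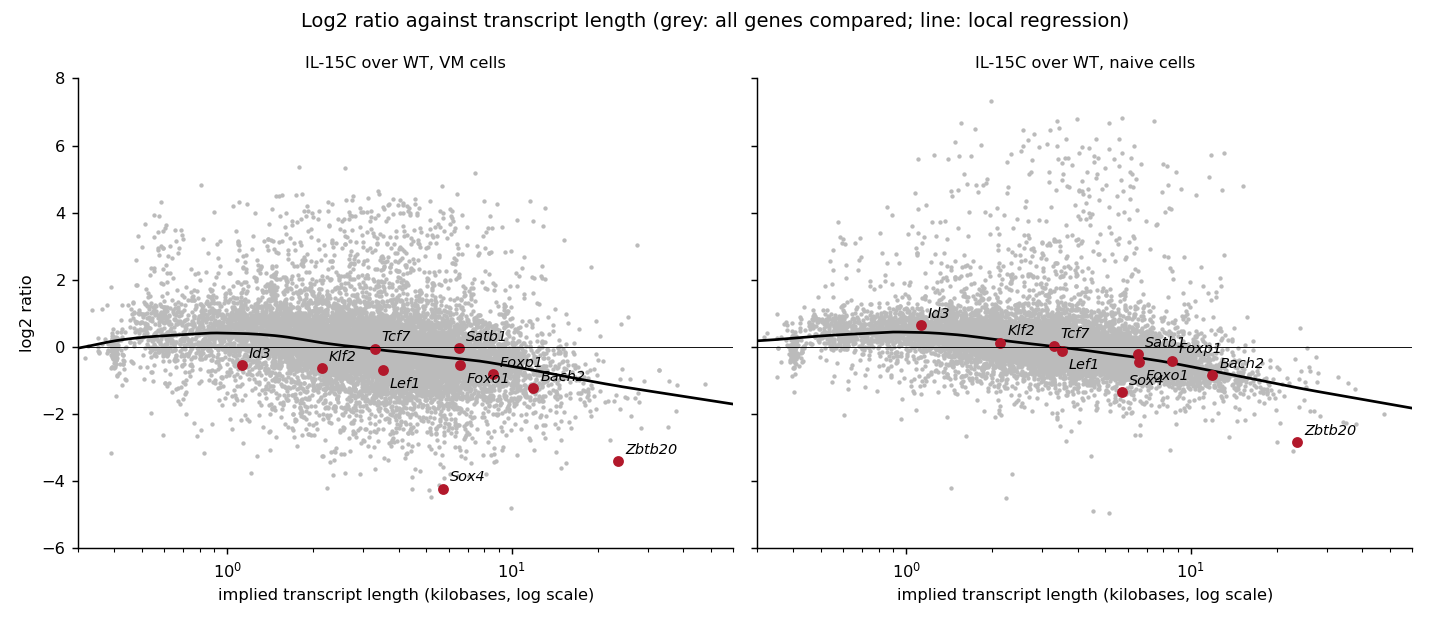
Log2 ratio of IL-15C over WT (vertical axis) against implied transcript length (horizontal axis, kilobases, log scale) in VM and naive cells, with grey points for all genes compared, a black line for the local regression and red points for the 10 genes. Bach2 lies close to the line in naive cells, and Zbtb20 lies below it in either subset, as Sox4 does.

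The response to IL-15C was set against itself between the subsets, as the log2 ratio in VM cells minus that in naive cells. Sox4 was the 1 gene of the 10 beyond 4-fold, at -2.87 (-3.78 to -2.26), where 0.587% of 12617 genes were called lower by this rule and 0.0634% higher. Id3 stood at -1.19 (-1.33 to -1.06), with a response of -0.54 in VM and 0.65 in naive cells. Klf2 stood at -0.75 (-0.80 to -0.70), with responses of -0.63 and 0.12, and Lef1 at -0.56 (-0.61 to -0.52). Zbtb20 stood at -0.55 (-0.87 to -0.26), and Foxo1 (-0.09), Tcf7 (-0.09) and Satb1 (0.18) had the differences nearest to 0. On the deposited TPM values with 1 added, which compress low genes, Sox4 was not beyond 4-fold and Zbtb20 stood at 0.23.

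Genes related to the 10 factors were examined by role. Among 13 targets of FOXO1 and KLF2, 3 were called lower with IL-15C in VM cells, beside 8.83% of all genes (median -0.49): Il7r, the IL-7 receptor chain that naive cells need for survival, Pik3ip1, an inhibitor of PI3K, and Gadd45a. Il7r stood at 211 CPM in IL-15C VM, 428 CPM in IL-15C naive, 645 CPM in WT VM and 508 CPM in WT naive cells, so that its WT VM level was the highest and its IL-15C VM level the lowest. Pik3ip1 stood at 43.2, 151, 138 and 194 CPM in that order of libraries, lowest in IL-15C VM cells. Under IL-15C, Pik3ip1 (-1.80) and Ccr7, the lymph node homing receptor (-1.10), were called lower in VM than in naive cells, 2 of 13 beside 5.91% of all genes (median -0.55). None of the 13 was called in naive cells (median -0.25) or between the subsets of WT mice (median -0.26). S1pr1, the receptor for exit from lymph nodes, stood at 291 CPM in IL-15C VM, 427 CPM in IL-15C naive, 409 CPM in WT VM and 513 CPM in WT naive cells.

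Among the partners of TCF1 and LEF1 in the table, the corepressor genes Tle1 and Tle2 and the coactivator gene Bcl9 were called lower in VM than in naive cells under IL-15C (3 of 12, beside 5.91% of all genes, none higher, median -0.00). Tle1 stood at 1.47 CPM in IL-15C VM, 13.6 CPM in IL-15C naive, 8.93 CPM in WT VM and 19.6 CPM in WT naive cells, an order of libraries like that of Lef1. Bcl9 stood at 6.72, 25.01, 22.1 and 39.4 CPM in the same order of libraries, and Tle2 had only 4 reads in IL-15C VM cells. With IL-15C in VM cells, Tle1 (-2.57) and Bcl9 (-1.71) were called lower, 2 of 11 compared beside 8.83% of all genes (median -0.39). In naive cells with IL-15C and between WT subsets none of the 12 was called, with medians of -0.47 and -0.10. Among the abundant partner genes, Ctnnb1, which encodes beta-catenin, stood at 296, 223, 242 and 258 CPM and Tle5 at 487, 382, 357 and 337 CPM in that order.

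Of the partners of BACH2 and the AP-1 genes it competes with, Jun and Junb were called lower with IL-15C in VM cells (2 of 6, beside 8.83% of all genes, median -0.68). Jun stood at 23.0 CPM in IL-15C VM, 79.9 CPM in IL-15C naive, 163 CPM in WT VM and 125 CPM in WT naive cells, and its response differed between the subsets by -2.18, beyond 4-fold, as for 0.587% of all genes. Jun (-1.80), Junb (-1.29) and Maff (-1.90) were called lower in VM than in naive cells under IL-15C, 3 of 7 beside 5.91% of all genes, with a median of -0.29. No gene of this list was called in naive cells with IL-15C (median -0.27) or between WT subsets (median 0.11). Of the E proteins that ID3 binds, Tcf12 stood at 153, 114, 206 and 168 CPM and Tcf3 at 153, 114, 121 and 104 CPM in the order used above. Tcf4, the least expressed of them at 0.467 to 3.46 CPM, was called lower with IL-15C in VM cells (1 of 3, beside 8.83% of all genes, median -0.44), and no E protein gene was called in the other comparisons (medians -0.56 in naive cells with IL-15C, 0.42 between subsets under IL-15C and 0.28 between WT subsets).

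Of 8 factors that act against the naive program, 5 were called higher in VM cells under IL-15C (median 1.93, beside 6.52% of all genes) and 6 in WT mice (median 2.14, beside 4.81%), and none lower. Tbx21, which encodes T-bet, stood at 145 CPM in IL-15C VM, 18.5 CPM in IL-15C naive, 92.8 CPM in WT VM and 3.58 CPM in WT naive cells. With IL-15C, Bhlhe40 was called higher (2.37) and Zeb2 lower (-1.40) in VM cells, each 1 of 8 beside 8.6% of all genes higher and 8.83% lower (median 0.05). Tbx21 (2.35) and Eomes (1.44) were called higher in naive cells, 2 of 6 beside 4.95% (median 0.49). Among 11 other quiescence genes, Btg1, an antiproliferative gene, was called lower with IL-15C in VM cells, at 292 CPM in IL-15C VM and 678 CPM in WT VM cells, and stood at 879.8 CPM in IL-15C naive and 847 CPM in WT naive cells. The cyclin-dependent kinase inhibitor gene Cdkn2c was called higher instead, at 96.6 CPM in IL-15C VM, 36.1 CPM in IL-15C naive, 8.39 CPM in WT VM and 3.50 CPM in WT naive cells. Each was 1 of 10 compared, near the shares over all genes of 8.83% lower and 8.6% higher, with a median of -0.61. In naive cells Cdkn2c alone was called, higher, 1 of 10 beside 4.95% (median -0.29). Between subsets Btg1 was lower and Cdkn2c higher in VM cells under IL-15C, each 1 of 10 beside 5.91% lower and 6.52% higher over all genes (median -0.20). In WT mice Cdkn2c alone was called, higher, 1 of 10 beside 4.81% (median -0.06).

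Of 19 relatives compared in VM cells 3 were called lower with IL-15C (Foxp3, Klf4 and Zbtb7b) and 1 higher (Tcf7l1). Over all genes 8.83% were lower and 8.6% higher, and the median of the relatives was -0.56. Foxp3 and Zbtb7b are also among the CD4 and regulatory T cell markers above, and the part of such cells was not tested. In IL-15C VM cells Foxp3 had only 15 reads and Klf4 23. In naive cells only Klf10 was called, higher at 1.21 (1 of 17, near the 4.95% of all genes, median -0.34). Between the subsets Zbtb32, Zbtb7b and Tcf7l1 were called higher and Sox12 lower in VM cells under IL-15C, 3 and 1 of 18 compared beside 6.52% higher and 5.91% lower over all genes (median -0.08). In WT mice Zbtb32 and Zbtb7b were called higher, 2 of 19 beside 4.81% (median 0.09). Zbtb32, a BTB zinc finger gene like Zbtb20, stood at 12.2 CPM in IL-15C VM, 0.770 CPM in IL-15C naive, 6.25 CPM in WT VM and 0.0983 CPM in WT naive cells. Its order was the opposite of that of Zbtb20 between subsets.

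**Figure D5:**
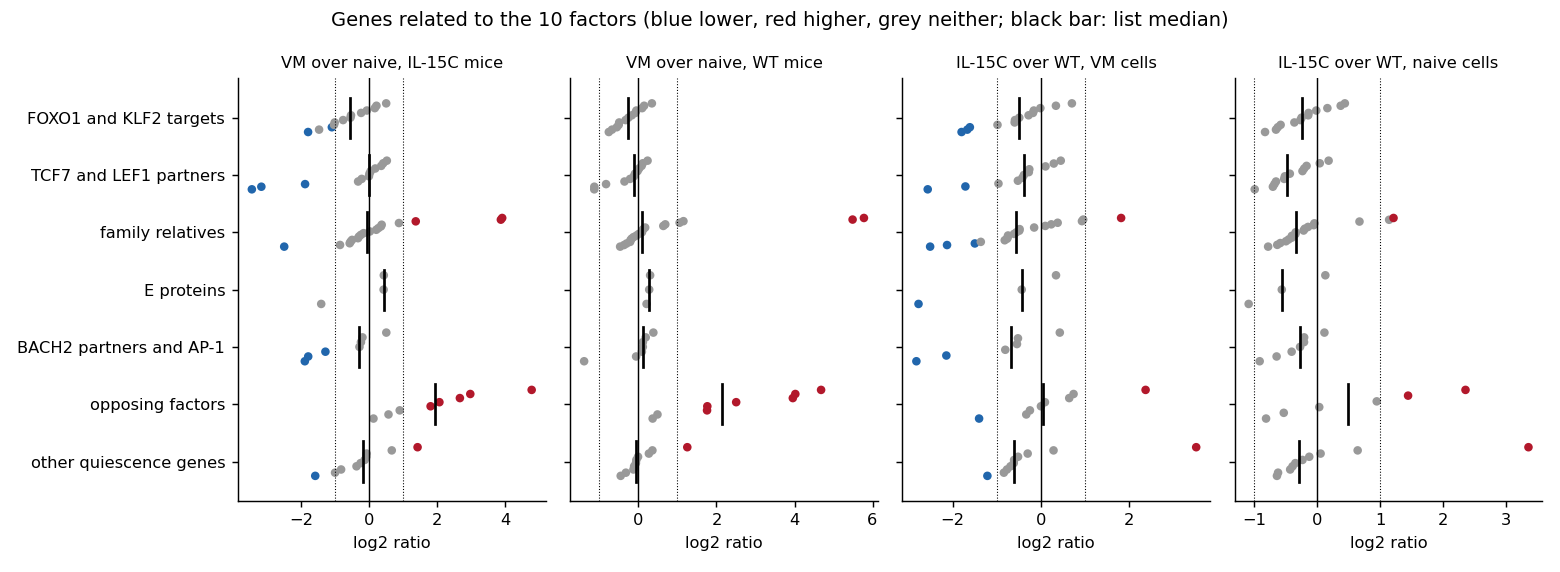
Log2 ratios (horizontal axis) of the genes in 7 related lists (rows) in the 4 comparisons, with 1 point per gene compared, blue for lower, red for higher and grey for neither, and a black bar for the list median. The opposing factors lie to the right in the panels of VM over naive cells, and the blue points gather in the panels that hold IL-15C VM cells.

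Genes whose levels over the 4 libraries were most like each factor were found among 8513 protein-coding genes of at least 10 CPM in the highest library, by the Euclidean distance of centred log2 levels. Nearest to Lef1 were Cep97 (distance 0.06), Pecam1 (0.06) and Cd9 (0.08), and nearest to Bach2 were Orai2 (0.05), Myo9a (0.07) and Slc16a5 (0.07). The neighbours of Sox4 lay farther off, Cers6 (0.25), Itga4 (0.43) and Kdm5b (0.49), and Zbtb20 had none within 1 log2 unit, with Ttc28 (1.12), Sox4 (1.20) and Fos (1.20) the nearest. For Id3 they were Rnf138 (0.18), Bcl2a1b (0.21) and Pctp (0.21). For the others the nearest was Fbxo3 for Tcf7 (0.01), Zfp35 for Klf2 (0.04), Prmt2 for Foxp1 (0.02), Kif3b for Foxo1 (0.04) and Ece1 for Satb1 (0.03). Each distance rests on 4 libraries.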

How the data were processed

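Poly(A) RNA from sorted CD8 cells was read in 4 libraries, 1 per group. Per the submitters' processing notes, the build was mm10 and the tools were HISAT2 2.1.0, StringTie 2.1.3b, R 4.2.2, edgeR, Trimmomatic 0.38, FastQC 0.11.7 and SAMtools 1.9, whose roles are not stated. The sources used here give neither annotation version nor strand setting. The authors deposited raw read counts, and beside them FPKM and TPM values, as the file headers name them. The deposited log2 columns equal log2 of 1 + TMM-scaled CPM within 5e-09. Columns headed ctrl were taken as WT. No use was made of 10 other columns of values. No count in the table is below 1, so genes without a read in some library were not analysed here.

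Counts were scaled by TMM (edgeR 4.0.16, R 4.3.3). Log2 ratios used a prior count of 2, over genes with 20 reads in the libraries compared and 1 CPM in the higher. The interval of the difference between responses is a normal approximation on the log scale. The length trend is a local regression (statsmodels 0.14.6, span 0.3) of the log2 ratio on the length implied by count and FPKM. The interval and call rules were checked on simulated data. Of the Entrez IDs, 15428 matched RefSeq on GRCm38.p6 and 38 did not. The members and lists were chosen with earlier results of these data known. All members were named, and from each list the called genes or up to 3 with the largest ratios, with some abundant members added after their values were seen. The search for like genes, among protein-coding genes, left out predicted, antigen receptor, ribosomal protein, histone and mitochondrial genes, with 0.5 CPM added, and 3 were named for members spanning 2-fold.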

Additional observations from a re-analysis of the deposited data

Results flagged for a closer look

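The response to IL-15C had opposite signs in the subsets, each with a counting interval that excluded 0, for 3 of the 10 factors. The share of all genes meeting this rule was not counted. At high read counts such an interval excludes 0 even for small differences, so the count does not set these factors apart. With 1 library per group the difference was not tested. Id3 had a log2 ratio of IL-15C over WT of -0.54 in VM and 0.65 in naive cells, and the signs held in the 7 alternatives that can alter a ratio. Klf2 stood at -0.63 in VM and 0.12 in naive cells, and the naive value was -0.07 with the length trend removed and -0.11 from deposited TPM values. Tcf7 stood at -0.055 in VM and 0.037 in naive cells. Its VM over naive ratio was likewise -0.069 under IL-15C and 0.023 in WT mice, untested as well, and the values 0.037 and 0.023 fell below 0 with total counts.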

How the results depend on the processing

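Every value rests on 1 library per group, so no library could be left out. No paired analysis was possible because each group had 1 library. Of the alternatives, 7 can alter a ratio, and under these 209 of 350 recomputed ratios of the 10 factors stayed within the counting interval and 141 moved beyond it, the most from deposited TPM values (38 of 50) and with the length trend removed (31 of 50). No called ratio changed sign. With total counts the median gene of the IL-15C over WT comparison in VM cells shifted by -0.11. At 1.5-fold the genes called lower were 1644 of 12206 (IL-15C) and 325 of 12259 (WT) for VM over naive cells. For IL-15C over WT they were 2277 of 12370 (VM) and 997 of 12174 (naive). Those called higher were 1620 for VM over naive cells under IL-15C, and 2077 (VM) and 1364 (naive) for IL-15C over WT. Of the 10 factors, 5 (IL-15C) and 1 (WT) were then lower in VM than naive cells and 6 lower with IL-15C in VM cells. For the difference between responses the threshold in this setting was 1.5-fold times 1.5-fold. By it 70 of 12617 genes were higher and 381 lower. With a 5 CPM filter fewer genes were compared, and their number is not given here, so the counts give no shares. With it 376 genes were higher in VM than naive cells of WT mice. Under IL-15C 510 genes and 1 factor were lower in VM than naive cells. In naive cells 150 genes were lower with IL-15C. From deposited TPM values, called without an interval, 454 genes were higher and 453 lower with IL-15C in naive cells, against 603 and 242 in the main result, and the difference had 13 higher, 43 lower and 0 factors. With the length trend removed, 768 genes and 2 factors were lower with IL-15C in VM cells, and 134 genes and 1 factor, Zbtb20, in naive cells. Sox4, at 16 reads in IL-15C VM cells, is limited by depth.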

Other observations

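Levels of paired family members were set against each other within a library on the per-length TPM scale, as a description with no test. Lef1 stood at 0.145 of the Tcf7 level in IL-15C VM, 0.329 in IL-15C naive, 0.218 in WT VM and 0.368 in WT naive cells, so that either VM library had a lower share than its naive counterpart. The ratio of Id3 to Id2, which encodes the inhibitor that promotes effector cells, was 0.758 in IL-15C VM, 0.948 in IL-15C naive, 1.44 in WT VM and 0.526 in WT naive cells, and WT VM cells were the one library with more Id3 than Id2. The ratio of Bach2 to Bach1, a related repressor of heme-responsive genes, was 0.883, 1.55, 1.24 and 1.87 in the same order, below 1 only in IL-15C VM cells. The ratio of Foxo1 to Foxo3 varied little, at 3.83, 4.31, 3.46 and 3.83.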
